A study of Drosophila melanogaster with 3 samples.

Results

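Peaks of tagged CG5180 protein were examined at 10 core cytoskeletal genes of Drosophila melanogaster: 3 alpha-tubulin genes (alphaTub84B, alphaTub84D and alphaTub85E), 2 beta-tubulin genes (betaTub56D and betaTub60D), 3 actin genes (Act5C, Act42A and Act57B), the profilin gene chic and the cofilin gene tsr. They were chosen by name from the 13945 protein-coding genes on the main chromosome arms, and all 10 were found in the annotation. The choice was made with earlier results of these data known. A peak belonged to a gene when its summit lay in the gene body or within 1 kb of it. The data are chromatin immunoprecipitation sequencing (ChIP-seq) peak lists from whole embryos of mixed sex, 0 to 16 h old, of a line stably expressing CG5180 with green fluorescent protein (GFP) at its C-terminus, precipitated with an antibody to GFP from chromatin sheared to 200 to 800 bp. CG5180 is named by its annotation number only. The 3 biological replicates form 1 group. No control library or untagged line was analysed here, so regions that any GFP precipitation would enrich cannot be told apart from regions bound by CG5180. Whole embryos mix all tissues, so a peak carried by few cells and a weak peak carried by many cannot be told apart either.

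Tubulin subunits of the alpha and beta type pair into the building block of microtubules, and actin monomers assemble into filaments. Profilin, the product of chic, binds actin monomers and delivers them to growing filament ends, while cofilin, the product of tsr (twinstar), severs and disassembles filaments. Flies carry several copies of the tubulin and actin genes with different uses. alphaTub84B, alphaTub84D and betaTub56D are broadly expressed, betaTub60D is used in the developing mesoderm and muscles, Act5C and Act42A encode the cytoplasmic actins, and Act57B encodes a muscle actin.

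Each replicate has a list of 30000 peaks, and so has the list called on the pooled replicates. The list named for the irreproducible discovery rate (IDR), a measure of how alike peaks rank in several lists, holds 5400. These are exactly the 5400 strongest of the pooled list, so a peak can be in it without ranking alike in the replicates. Strength is the signal value, a score from the authors' peak caller, which is comparable only within a list. Ranks count from 1 for the strongest peak of a list. The weakest IDR peak had a signal value of 182.0, and the strongest pooled peak outside the IDR list had 181.9. The lowest −log10 q-value of the IDR list was 2.57. The pooled list was deposited as peaks and background together, to serve as input for IDR. Its weaker entries, also called peaks here, can therefore be background. This may hold for the replicate lists too, which are of the same length.

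Of the 10 genes, 4 had an IDR peak: betaTub60D, Act5C, chic and alphaTub84B, in order of their strongest peak. Among all protein-coding genes the share was 23.7%, and among the 5984 genes within the members' range of lengths, from 1780 to 8904 bp, it was 23.5%. The same 4 genes were called when the strongest 5400 peaks of replicate 1, replicate 2 or replicate 3 were used, where the shares of all protein-coding genes were 23.1%, 24.4% and 25.4%. With the summit required within 250 bp of a transcription start site (TSS), 3 of the 10 genes were called (alphaTub84B, betaTub60D and chic), against 12.0% of all protein-coding genes. The replicates' strongest peaks gave 3, 3 and 2 genes by this rule, against 11.4%, 12.3% and 13.6% of all protein-coding genes (mean 2.67 ± 0.577, SD, n = 3). With 10 genes and 1 group of samples no test was made, and these counts are descriptions.

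The 4 genes held 9 IDR peaks in 6 separate regions. All 4 had at least 2 IDR summits, as did 9.24% of all protein-coding genes and 39.0% of the 3309 genes with any IDR peak. At alphaTub84B, betaTub60D and Act5C the summits came as a pair in 1 region, 254, 202 and 213 bp apart. Over the whole IDR list 20.6% of peaks had another summit within 300 bp. A pair of this kind is thus counted here as 2 summits of 1 region. Of the 9 peaks, 7 carried the highest −log10 q-value of the list (3.88), as did 3783 of all 5400.

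**Figure D1:**
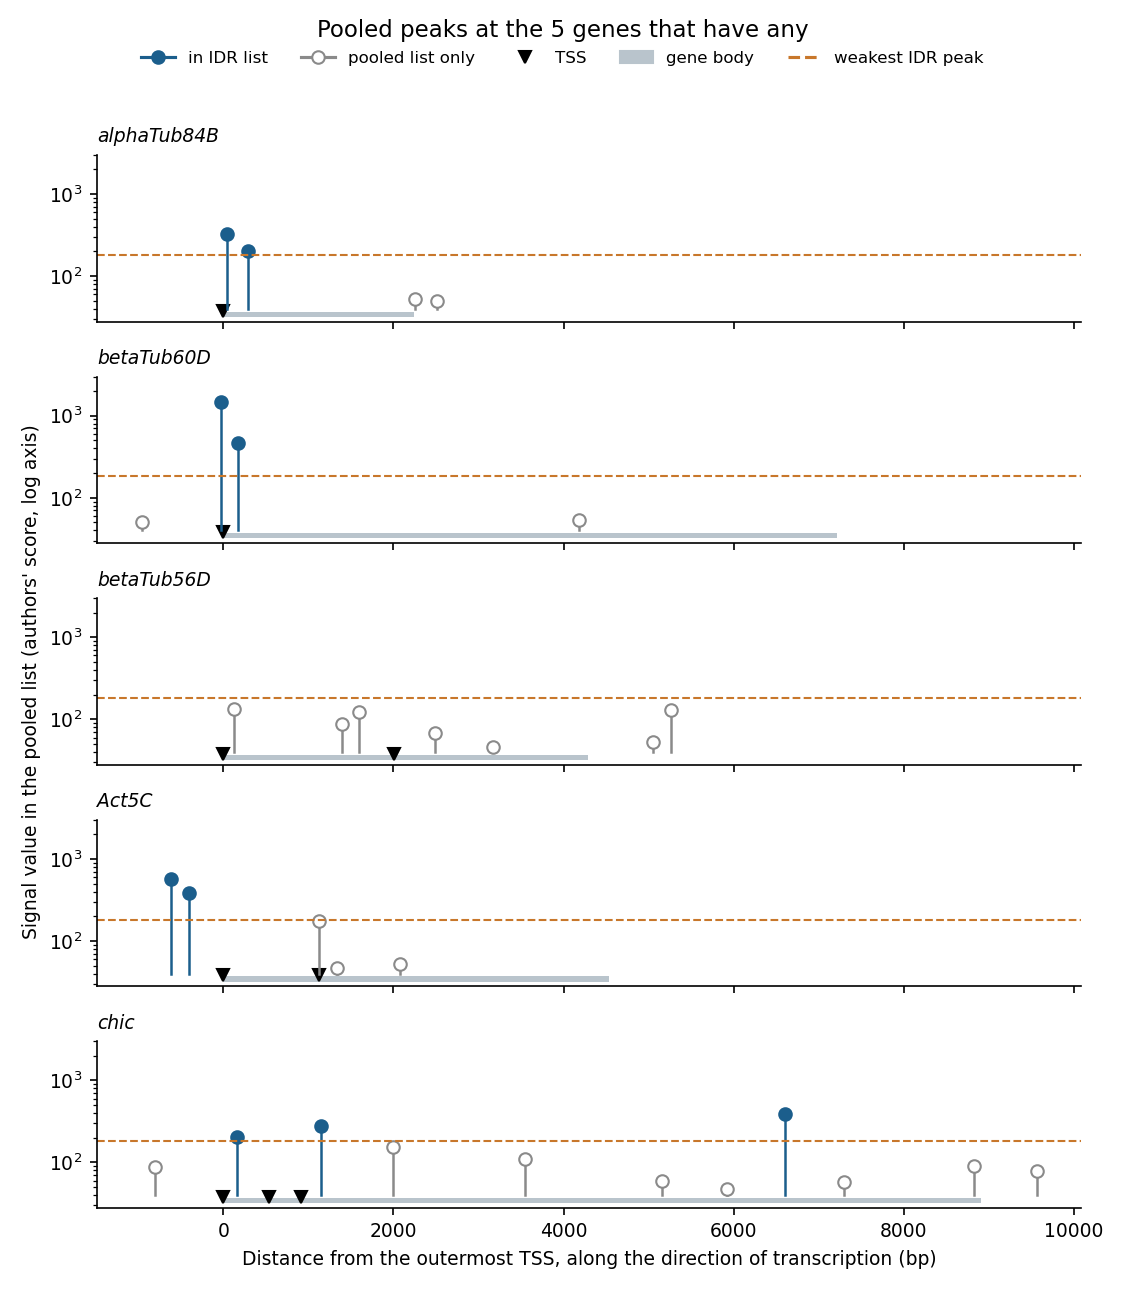
Positions of pooled peaks at the 5 genes that have any, as distance in bp from the outermost TSS along the direction of transcription, against the authors' signal value on a log axis. Filled circles are IDR peaks, open circles are peaks of the pooled list alone, triangles are TSSs, grey bars are gene bodies and the dashed line is the weakest IDR peak (182.0). The tallest peak stands at the betaTub60D start, the Act5C pair lies upstream of the gene, and all peaks at betaTub56D lie under the line.

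The sequences just upstream of the 3 alpha-tubulin starts are shown because 1 of these genes had peaks and the other 2 had none in any list. Each is the 200 bases before the TSS on dm6, 5′ to 3′ along the gene, from the RefSeq sequence of genome release 6. Capitals mark matches to the motifs named below.
alphaTub84B (chr3R:7086399-7086598, plus strand): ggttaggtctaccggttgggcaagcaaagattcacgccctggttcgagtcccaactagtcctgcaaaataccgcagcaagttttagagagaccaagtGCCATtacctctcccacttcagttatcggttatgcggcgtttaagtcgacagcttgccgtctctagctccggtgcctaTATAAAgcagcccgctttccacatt
alphaTub84D (chr3R:7530553-7530752, plus strand): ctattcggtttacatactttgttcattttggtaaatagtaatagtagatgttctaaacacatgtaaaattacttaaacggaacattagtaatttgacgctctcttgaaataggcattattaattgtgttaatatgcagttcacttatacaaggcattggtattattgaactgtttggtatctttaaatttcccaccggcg
alphaTub85E (chr3R:9733251-9733450, minus strand): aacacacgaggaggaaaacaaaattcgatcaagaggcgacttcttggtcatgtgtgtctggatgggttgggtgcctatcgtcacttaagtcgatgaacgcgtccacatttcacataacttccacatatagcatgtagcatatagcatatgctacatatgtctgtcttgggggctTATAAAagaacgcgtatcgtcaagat
The motifs searched on both strands were GAGAGAG for the protein encoded by Trl, TATCGATA for DREF, TATAAA for the core promoter box of that name, GCCAT for Pho, and the E-box sequence CAGCTG beside the further E-box sequence CACGTG. The CArG box, bound by serum response factor, was searched too and is given by name alone. TATAAA and GCCAT each had 1 match upstream of alphaTub84B. TATAAA also had 1 match upstream of alphaTub85E, and none of the 7 had a match upstream of alphaTub84D. The GC content was 51.0% at alphaTub84B, 31.0% at alphaTub84D and 43.5% at alphaTub85E, beside a median of 39.0% over 19607 upstream windows of protein-coding genes.

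Sequences at Act5C and chic follow. The first 3 are shown because these IDR peaks lie away from the starts of Act5C and chic themselves, and the last because it holds the GAGAGAG matches of the set. The first 3 are 201 bases centred on an IDR summit. The last is the stretch between the innermost chic TSS and the next exon upstream, which lies between the 2 chic promoter peaks and overlaps the nearer one at its last bases only. Strand and capitals are as above.
Act5C, summit 611 bp upstream (chrX:5900150-5900350, plus strand): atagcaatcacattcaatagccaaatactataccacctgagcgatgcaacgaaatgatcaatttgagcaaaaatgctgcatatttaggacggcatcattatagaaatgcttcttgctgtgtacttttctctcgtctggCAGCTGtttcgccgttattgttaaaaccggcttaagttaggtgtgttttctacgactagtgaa
Act5C, summit 398 bp upstream (chrX:5900363-5900563, plus strand): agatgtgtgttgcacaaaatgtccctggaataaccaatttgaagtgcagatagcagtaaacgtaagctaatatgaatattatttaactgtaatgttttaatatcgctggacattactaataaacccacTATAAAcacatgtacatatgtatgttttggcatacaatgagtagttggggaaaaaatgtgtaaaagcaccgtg
chic, intronic summit (chr2L:5974317-5974517, minus strand): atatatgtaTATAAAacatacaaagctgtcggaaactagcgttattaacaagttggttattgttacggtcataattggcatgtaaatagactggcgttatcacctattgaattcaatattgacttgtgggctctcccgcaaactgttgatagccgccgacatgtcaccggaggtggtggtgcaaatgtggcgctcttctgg
chic, upstream of the inner TSS (chr2L:5980102-5980208, minus strand): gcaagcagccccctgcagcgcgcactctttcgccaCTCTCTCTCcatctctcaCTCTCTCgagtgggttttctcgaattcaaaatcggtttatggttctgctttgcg
The last stretch holds 3 matches to GAGAGAG on the opposite strand, of which 2 overlap, and all 3 lie outside the IDR peaks. In replicate 2 the peak near this start (5979761 to 5980244, rank 3078) covers all 3. GAGAGAG occurred in 6.17% of all upstream windows.

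betaTub60D had the strongest peak of the 10 genes. The gene (FBgn0288686) lies on dm6 at 2R, 24305881 to 24313099, plus strand, and has 1 TSS. Its leading IDR peak (24305615 to 24306168) had its summit 30 bp upstream of that TSS, with a signal value of 1479 and rank 398. Its rank was 398 in replicate 1, 481 in replicate 2 and 391 in replicate 3 (mean 423 ± 50.1, SD, n = 3), with signal values of 618, 473 and 396 in those lists. The summit moved little between libraries, at 10, 18 and 21 bp upstream of the TSS (SD 5.69 bp, n = 3). The second summit of the same region lay 172 bp downstream of the TSS in the 5′ UTR, with signal value 460 and rank 1649. This summit ranked 1718 in replicate 1, 2780 in replicate 2 and 1387 in replicate 3. Both summits were thus among the strongest 5400 of every replicate. In the pooled list, 361 protein-coding genes (2.59%) had a stronger peak in or near them than betaTub60D. No other annotated gene lies within 1 kb of either summit, and no other gene shares this peak.

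The protein-coding genes outside the lists described here whose TSS peak was most like that of betaTub60D, by distance in log10 rank over the 3 replicates, were robo2, eIF4A and CG34393. robo2, a receptor for the axon guidance cue Slit, ranked 397, 472 and 380 in replicates 1, 2 and 3 (distance 0.0149). eIF4A, the RNA helicase of translation initiation, ranked 366, 456 and 381 (distance 0.0446), and CG34393 ranked 434, 512 and 404 (distance 0.0485).

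betaTub56D, the broadly expressed beta-tubulin gene, had no IDR peak. The gene (FBgn0284243; 2R, 19447319 to 19451600, minus strand) had 7 peaks in the pooled list, all below the IDR list in strength. Their −log10 q-values ran from 0.207 to 1.64, beside a lowest value of 2.57 in the IDR list. The strongest lay 129 bp downstream of the outer TSS, with signal value 132 and rank 8030. Within 200 bp of that summit, the nearest peak of replicate 1 had rank 22259. A stronger one in the same window, 283 bp downstream of the outer TSS, had rank 9475. Replicate 2 had one of rank 5512 there, and replicate 3 had none. A further peak, 405 bp upstream of the inner TSS and in an intron, had rank 8685 in the pooled list and ranks 6442, 11397 and 9973 in replicates 1, 2 and 3. The 2 beta-tubulin genes thus differed in rank in every library, since the strongest betaTub56D peak ranked 6442, 5512 and 9973 in the replicates where that of betaTub60D ranked 398, 481 and 391. Downstream of betaTub56D, a pooled peak of rank 8267 lies near EloC, and it ranked 29823, 8034 and 3523 in the replicates. Its summit in replicate 3 lies just beyond the 1 kb limit.

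alphaTub84B was the only alpha-tubulin gene of the 3 with a peak in any list. The gene (FBgn0003884; 3R, 7086599 to 7088839, plus strand) had an IDR summit 41 bp downstream of its TSS, in the 5′ UTR (peak 7086408 to 7086871), with signal value 323 and rank 2583. In the replicates it ranked 5191, 1714 and 3041 (mean 3315 ± 1755, SD, n = 3), high in replicate 2 and close to the end of the strongest 5400 in replicate 1. Its summits there lay 67, 31 and 31 bp downstream of the TSS. The second summit, 295 bp downstream and in an intron, had signal value 202 and rank 4747. It ranked 5958, 3940 and 5333, so replicate 1 did not hold it among its strongest 5400. Tailor, on the opposite strand, starts 557 bp from the leading summit, and its body therefore shares both peaks under the 1 kb rule. The antisense RNA gene asRNA:CR45907 shares them as well, and alphaTub84B has the nearest TSS.

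alphaTub84D (FBgn0003885; 3R, 7530753 to 7532732, plus strand) and alphaTub85E (FBgn0003886; 3R, 9731221 to 9733250, minus strand) had no peak within 1 kb in the pooled list or in any replicate list. These were 2 of the 10 genes, and the same held for 33.0% of all protein-coding genes, and for 29.0% of those within the members' range of lengths. The nearest pooled summits lay 16287 bp from alphaTub84D and 27388 bp from alphaTub85E. A gene without a listed peak was not detected at the depth of these libraries, which is unknown, and is not shown to be unbound.

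The tubulin and actin genes are near copies in their coding sequence, where reads can be hard to place. alphaTub84B and alphaTub84D were identical at 92.2% of coding bases, Act5C and Act57B at 91.0%, and betaTub56D and betaTub60D at 81.4%. Of the 36-base words in the gene bodies, 6.53% at alphaTub84B and 8.33% at alphaTub84D occurred elsewhere in the genome. Within 250 bp of all 14 TSSs of the 10 genes, and within all 9 IDR peaks, 0% of the 36-base words occurred elsewhere. The IDR peaks and the TSS windows are thus single-copy at that word length. Peaks of the pooled or replicate lists alone were not examined in this way, and the bodies of betaTub56D and Act57B held 1.08% and 2.95% of such words. How reads with several matches were treated is not given in the sources used here.

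**Figure D2:**
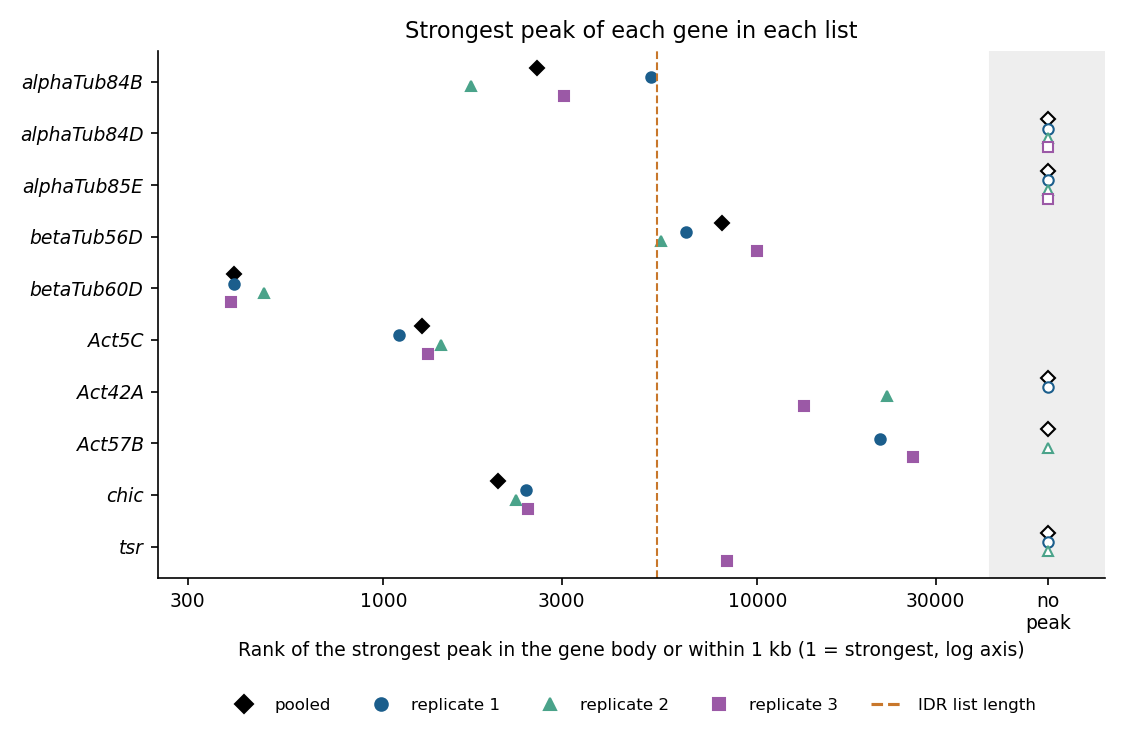
Rank of the strongest peak in the gene body or within 1 kb for each of the 10 genes (log axis, 1 is the strongest), in the pooled list and in replicates 1, 2 and 3. Open symbols in the grey band stand for no peak, and the dashed line is the length of the IDR list (5400). betaTub60D, Act5C, chic and alphaTub84B lie left of the line in every list, and alphaTub84D and alphaTub85E lie in the grey band throughout.

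Act5C was the only actin gene of the 3 with an IDR peak, and its peaks lay upstream of the gene rather than at a start. The gene (FBgn0000042; X, 5900861 to 5905399, plus strand) has 2 TSSs, the outer one with 4 transcripts and the inner one, at 5901982, with 1. The leading IDR summit (peak 5900053 to 5900342) lay 611 bp upstream of the outer TSS, with signal value 567 and rank 1268. It ranked 1104, 1427 and 1313 in replicates 1, 2 and 3 (mean 1281 ± 164, SD, n = 3). The second summit, 398 bp upstream (peak 5900231 to 5900694), had signal value 383 and rank 2084, and ranked 1585, 2931 and 2503. Both were therefore among the strongest 5400 peaks of every replicate. The start of the noncoding RNA gene lncRNA:CR45668, on the opposite strand, is nearer to the leading summit (261 bp) than that of Act5C, and lies 474 bp from the second summit.

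At the inner Act5C TSS a pooled peak fell just short of the IDR list. Its summit lay 5 bp downstream of that TSS, in the 5′ UTR, with signal value 176 and rank 5671. In the replicates it ranked 5557, 6148 and 5430, beyond the first 5400 each time. The replicate summits lay 7 bp upstream, 43 bp downstream and 99 bp downstream of the TSS. In the whole pooled list, 5 of the 10 genes had a summit within 250 bp of a TSS (28.2% of all protein-coding genes). The same 5 had one in the gene body or within 1 kb (48.9%). Weaker entries of this list can be background. A further pooled peak, 1311 bp upstream of the outer TSS and so outside the 1 kb limit, had rank 5628.

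Act42A (FBgn0000043; 2R, 6013910 to 6015689, minus strand), the other cytoplasmic actin gene, had no pooled peak. Replicate 3 held 3 weak peaks at it, the best of rank 13376, replicate 2 held 1 of rank 22184, and replicate 1 held none. The muscle actin gene Act57B (FBgn0000044; 2R, 20944021 to 20946431, plus strand) had no pooled peak either, with 1 peak of rank 21308 in replicate 1, 1 of rank 26137 in replicate 3 and none in replicate 2. These replicate peaks lay in different places, so none recurred. Their −log10 q-values were 0.749 at most, beside a lowest value of 2.57 in the IDR list, so they can be background.

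chic carried the most IDR peaks of the 10 genes, 3 in separate regions. The gene (FBgn0000308; 2L, 5972115 to 5981018, minus strand) is the longest of the set and has 3 TSSs, at 5981018, 5980481 and 5980101. Its strongest peak (5974324 to 5974506) lay inside an intron, 5684 bp downstream of the innermost TSS, with signal value 390 and rank 2030. It ranked 2407, 2264 and 2435 in replicates 1, 2 and 3 (mean 2369 ± 91.7, SD, n = 3), close together, and its summits there lay within a range from 5681 to 5702 bp of the TSS. No other gene lies within 1 kb of it.

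The 2 promoter peaks of chic varied more between libraries. One, 228 bp downstream of the innermost TSS in an intron (5979641 to 5980104), had signal value 276 and rank 3173, and ranked 3708, 3078 and 5483. The other, 162 bp downstream of the outermost TSS in the 5′ UTR (5980624 to 5981087), had signal value 205 and rank 4653, and ranked 9514, 3417 and 8189 (mean 7040 ± 3207, SD, n = 3). Replicate 2 alone held the second of these among its strongest 5400 peaks, and replicate 3 held neither. When IDR peaks had to recur among the strongest 5400 of all 3 replicates, the chic promoter call was lost, and 2 of the 10 genes remained by the 250 bp rule in place of 3. With recurrence required in 2 replicates only, it was lost without replicate 1 or without replicate 2, and kept without replicate 3. Among all protein-coding genes that rule gave 9.75%, 9.54% and 9.52% without replicates 1, 2 and 3. The 1 kb rule gave 4 of the 10 genes in each case, against 19.7%, 19.5% and 19.7% of all protein-coding genes.

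eIF4A starts 746 bp from chic on the opposite strand, and shares the peak near the outermost chic TSS, which is 908 bp from an eIF4A start. A far stronger peak (5982376 to 5982842, signal value 1570, rank 378) has its summit 40 bp from an eIF4A TSS and 1616 bp from chic. It lies outside the 1 kb limit and was not counted for chic. A weak pooled peak 807 bp upstream of the outermost chic TSS (rank 13225, not in the IDR list) was counted for chic. Its summit lies just past the eIF4A start, so eIF4A shares that peak too.

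tsr, the cofilin gene (FBgn0011726; 2R, 24044453 to 24046805, minus strand), had no IDR or pooled peak. The only peak at it in any list was in an intron in replicate 3, 1224 bp downstream of the TSS, with rank 8309. The nearest IDR summit lay 2330 bp from the gene, inside sei, a potassium channel gene, with signal value 327 and rank 2546. Of the genes of the 2 actin-binding proteins, chic held 3 IDR peaks and tsr held 0. These counts are not directly comparable, since chic spans 8904 bp with 3 TSSs and tsr 2353 bp with 1. Any IDR peak was found at 23.7% of all protein-coding genes, so a gene without one is the common case.

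**Figure D3:**
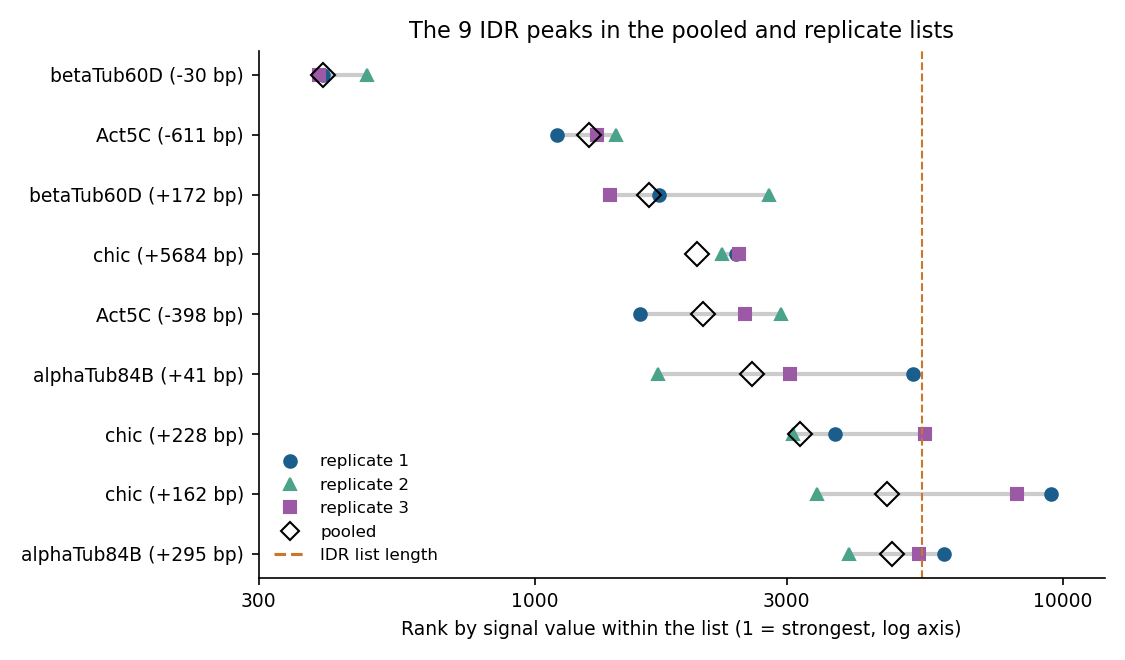
Rank of each of the 9 IDR peaks (1 is the strongest, log axis) in the pooled list (diamonds) and in replicates 1, 2 and 3, with the summit's distance from the nearest TSS of the gene in brackets. Grey lines span the replicates and the dashed line is the length of the IDR list (5400). The ranks of the betaTub60D peak at the TSS and the chic intronic peak lie close together, and those of the chic peak at +162 bp span from 3417 to 9514.

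All 9 IDR peaks had a summit within 200 bp in each of the 3 replicate lists, and 6 were among the strongest 5400 of all 3 replicates. For the whole IDR list, the share among the strongest 5400 of all 3 replicates was 68.7%. The share with a summit within 200 bp in all 3 lists is not given here, so the count of 9 has no such value beside it. These 6 peaks lay at the same 4 genes, and 18.3% of all protein-coding genes had such a peak. Within 250 bp of a TSS it was 2 of the 10 genes, betaTub60D and alphaTub84B, against 8.84%. Of the 3 others, 2 were among the strongest of 2 replicates, and the chic peak near the outermost TSS among those of replicate 2 alone. Of the 22 pooled peaks at the genes that are not in the IDR list, 5 had a summit within 200 bp in all 3 replicate lists. The share over all such pooled peaks is not given either. The replicate lists entered the making of the IDR list, so recurrence of its peaks was partly built in.

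Motif matches were counted at the peaks and upstream of the starts, beside the shares over all such windows. In the 201 bases around the 9 summits, TATAAA occurred at 3 (25.6% of all IDR summit windows hold it), GCCAT at 2 (27.5%), CAGCTG at 1 (9.33%) and a CArG box at 1 (1.15%), while GAGAGAG (6.74%), TATCGATA (1.07%) and CACGTG (2.35%) occurred at none. Upstream of the 14 TSSs, TATAAA occurred within 200 bases at 6 (33.4% of all upstream windows) and GCCAT at 6 (29.7%). A CArG box occurred upstream of both Act5C starts (0.852% of all upstream windows), and GAGAGAG upstream of the innermost chic TSS alone. TATAAA began 35 to 20 bp before the TSS on the sense strand at 5 of the 14 starts, those of alphaTub84B, alphaTub85E, Act57B, betaTub56D and Act5C, against 6.16% of 19607 starts. That position was chosen after the matches were seen. Of these 5 starts, that of alphaTub84B alone had an IDR summit within 250 bp. A match is a description of the letters and does not show a working site.

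Among related genes, actin filament regulators had IDR peaks at 18 of 40 (45.0%, beside 23.7% of all protein-coding genes), with 9 at a TSS (22.5%, beside 12.0%). The strongest were at coro (coronin, an actin filament binding protein; signal value 4684, 42 bp from its TSS), Actn (alpha-actinin, which crosslinks filaments; 793), tmod (tropomodulin, which caps filament ends; 770) and Vinc (vinculin, which links actin to adhesion sites; 646). The lists of related genes were not tested, and no share for genes of like length is given beside theirs. A long gene offers more room for a summit under the 1 kb rule. Some strongest peaks lay far from a TSS of their gene (ena 4490 bp, sn 2834 bp). Those at Hem and cpa were nearest to the TSSs of IleRS and shg. Microtubule-associated and motor genes had 7 of 33 (21.2%), with 3 at a TSS (9.09%). The strongest of these were chb (CLASP, a microtubule plus-end protein; 1657, nearest to the TSS of Ac78C), Atat (tubulin acetyltransferase; 1655, nearest to that of aay), shot (a spectraplakin that links microtubules and actin; 1233) and Grip91 (a gamma-tubulin ring protein; 782, nearest to that of CG11151).

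Other tubulin genes had IDR peaks at 2 of 6 (33.3%), with 1 at a TSS (16.7%). gammaTub23C, a gamma-tubulin that nucleates microtubules, has its peak (559) at a TSS and shares it with Rrp1, which has the nearer TSS, and the peak at gammaTub37C (194) is nearest to pigeon. Other actin and actin-related genes had 2 of 11 (18.2%), namely Arp2, a subunit of the branching Arp2/3 complex (304, 1232 bp from its TSS), and Act87E, a muscle actin (282, 261 bp from its TSS), and 0 at a TSS. Muscle contractile genes had 4 of 13 (30.8%), sls (the titin homologue; 419), TpnC47D (298), Strn-Mlck (282) and TpnC73F (276, nearest to the TSS of rogdi), and 0 at a TSS.

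**Figure D4:**
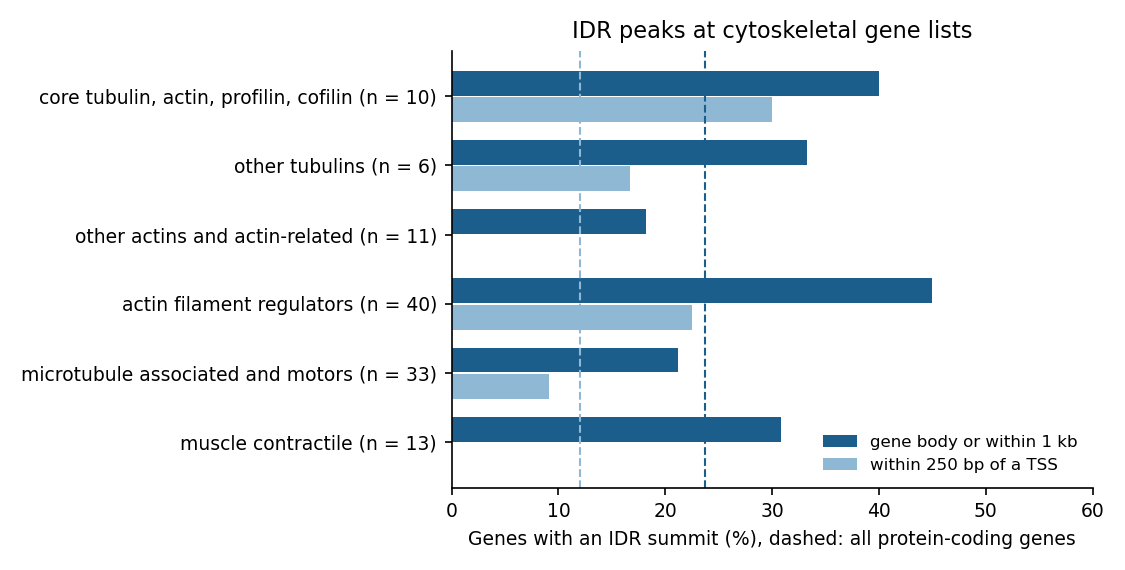
Percent of genes with an IDR summit in the gene body or within 1 kb (dark bars) or within 250 bp of a TSS (light bars) for the 10 core genes and 5 lists of related genes, with the number of genes found in brackets. Dashed lines are the shares of all protein-coding genes, 23.7% and 12.0%, which were not matched to any list for gene length. The bars of the core genes (4 and 3 of 10) and of the actin filament regulators (18 and 9 of 40) each end right of the line of their own rule, as do those of the other tubulins (2 and 1 of 6). Those of microtubule-associated and motor genes (7 and 3 of 33) and of other actins (2 and 0 of 11) each end left of it, and muscle contractile genes lie right of it by the first rule (4 of 13) and left by the second (0).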

How the data were processed

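ChIP-seq peak lists on dm6 were used: 1 for each of 3 replicates, 1 for the pooled replicates and the IDR list. Per the file notes deposited with each library, 1 replicate's alignments and 1 further file gave each replicate list. All 3 alignments with the same further file gave the pooled list, and these lists gave the IDR list. The deposited signal value is a score by the authors' caller, and a −log10 q-value stands beside it in the deposited lists. For the aligner, peak caller and IDR threshold, names and settings were not given in the sources used here. Lists on dm3 were not used.

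Genes and TSSs came from Ensembl release 115, sequence from RefSeq genome release 6. All dm6 peaks lay within its chromosomes. Coordinates are 1-based. Summits were assigned in Python 3.11.15 with pandas 2.3.3, and the step was tested on simulated data. Depth is unknown, so no interval is given. Members and lists were chosen with earlier results of these data known. Of 112 symbols in the 5 other lists, some given in several spellings, 103 were found. Up to 4 genes per list, ranked by signal value, are named.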

Additional observations from a re-analysis of the deposited data

How the results depend on the processing

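Leaving out a replicate also required each IDR peak to be among the strongest of both others. Without replicate 1, 2 or 3 in turn, 4 genes had an IDR peak, 2 to 3 had one at a TSS, and there were 6 to 7 IDR peaks. With no such requirement the values were 4, 3 and 9. With the same requirement in all 3 replicates, added after the data were seen, they were 4, 2 and 6. Peaks that meet it in all 3 replicates also meet it when a replicate is left out. Values without a replicate therefore could not fall below these. The effect of leaving a replicate out cannot be told apart from that of the requirement. With all pooled peaks in place of IDR peaks, the genes with a summit at a TSS rose to 5 from 3. Each gene's strongest pooled peak was followed into the replicate lists by its position, taking the nearest summit within 200 bp. Some ranks in a replicate list differed from the pooled rank by more than the SD between replicates. In replicate 1 these were Act5C (1104, pooled 1268), alphaTub84B (5191, pooled 2583) and betaTub56D (22259, pooled 8030). The others were betaTub60D in replicate 2 (481, pooled 398) and chic in all 3 (2407, 2264 and 2435, pooled 2030). For betaTub56D the SD came from replicates 1 and 2 only. Replicate 1 also held a stronger peak of rank 9475 within 200 bp of that pooled summit, so this shift depends on taking the nearest summit. A different betaTub56D peak ranked 6442 there. The other 41 values under alternative settings kept within 1.5 times the main count or within that SD. The cause of these shifts was not tested. No paired analysis was possible because there is 1 group. Depth is unknown, so a gene without a peak may lie under the limit of detection.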

Other observations

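The gene of the tagged protein, CG5180 (3R, 20557930 to 20559760), had 3 IDR peaks in its body or within 1 kb, the strongest with signal value 320 and rank 2616. The strongest peak at it in each replicate list ranked 5992 in replicate 1, 1916 in replicate 2 and 2030 in replicate 3. These need not be the same summit. alphaTub84B, with pooled rank 2583, likewise ranked lowest in replicate 1. The strongest peaks of betaTub60D, Act5C and chic did not. They ranked lowest in replicate 2 (481), replicate 2 (1427) and replicate 3 (2435).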
